A study of Arabidopsis thaliana with 74 samples.

Results

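Among the epiRILs of this study, 9 lines had lost the largest share of the small RNA (sRNA) of the chromosome 2 pericentromere and 9 lines had kept nearly all of it. The lines were chosen by their own sRNA levels, ranked on 5991 windows of 200 bp between 0.6 and 6.6 Mb of chromosome 2, all of them regions defined for CHH methylation in which both msCol libraries had at least 1 CPM (counts scaled to the library total). A window was counted as lost in an epiRIL when its level was at most 0.1 times the mean of the 2 msCol libraries. The 9 lines with the highest share of lost windows are called losing lines and the 9 with the lowest share keeping lines, out of 34 ranked lines, and the 16 lines between them are called middle lines. With the epiHybrid of each line, 36 of the 74 libraries of the series entered the comparison.

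The epiRILs are Columbia lines that descend from a ddm1-2 mutant mother and a wild-type father. Their ancestors were backcrossed to the wild type and selfed by single seed descent, and all of them carry the functional DDM1 allele, so DDM1 is functional in losing and keeping lines alike. The epiHybrids are the offspring of a male-sterile Columbia mother, msCol, and the epiRIL with the same family number as father. The msCol mother carries a segment of Landsberg (Ler) origin around MS1 on chromosome 5, which all epiHybrids share. Aerial rosettes were harvested 27 days after sowing under long days, and rosettes of the replicate cultivations were pooled, so that each line is 1 library and every p-value measures the spread between lines. The 36 families of the series had been picked for their leaf area heterosis.

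Most sRNA of 24 nucleotides in Arabidopsis is made from transposons and other repeats by RNA polymerase IV and RDR2. It guides methylation of the same or similar sequences by RNA-directed DNA methylation (RdDM), and CHH methylation is the context that depends on it most directly. DDM1 is a chromatin remodeler that keeps transposons of the pericentromeres methylated, and segments of the genome that pass through a ddm1 mutant can stay without methylation and without sRNA for many generations. sRNA made from one copy of a repeat can act on other copies. The deposited counts were not split by read length, so all lengths are included in the values below.

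Depth was similar between the sets. The losing epiRILs had between 24752117 and 26661916 counts in CHH windows and the keeping epiRILs between 25579648 and 26777462. Their epiHybrids had between 24842569 and 27084303 counts with a losing father and between 20995764 and 26452578 with a keeping father. At 162 windows within 1 Mb of MS1 where msCol had few counts, the epiRIL library was higher than the epiHybrid library in 34 of 36 families, among them all 18 used here. The order was the opposite in families 12 and 568, which were therefore left out of the ranking. Among the families used, the relative level of the epiHybrid in this check was highest in families 503, 219 and 266 (0.673, 0.657 and 0.634). It was 0.384 to 0.526 in the others. The epiRIL and the epiHybrid were closest in family 503 (0.883 and 0.673), and the cause was not tested.

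The sequences of 4 windows on the other chromosomes are shown first, because the first 3 lie in the longest runs of called windows and the 4th had the largest fold change in the epiRILs. The reference is TAIR10.1, the plus strand is given, and the chromosome lengths are those of the deposited windows. In the first 3 windows, capitals mark bases in stretches of at least 24 bases that also occur, on either strand, in the pseudogenes AT2G13000 or AT1G42510. In the 4th window, capitals mark stretches of at least 24 bases that also occur between 0.6 and 6.6 Mb of chromosome 2.
AT1G36200, chr1:13580401-13580600: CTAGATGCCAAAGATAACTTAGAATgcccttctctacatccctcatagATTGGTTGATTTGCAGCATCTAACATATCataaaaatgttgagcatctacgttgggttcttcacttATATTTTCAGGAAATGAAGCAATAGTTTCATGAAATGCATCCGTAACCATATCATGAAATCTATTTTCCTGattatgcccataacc
AT1G36270, chr1:13631801-13632000: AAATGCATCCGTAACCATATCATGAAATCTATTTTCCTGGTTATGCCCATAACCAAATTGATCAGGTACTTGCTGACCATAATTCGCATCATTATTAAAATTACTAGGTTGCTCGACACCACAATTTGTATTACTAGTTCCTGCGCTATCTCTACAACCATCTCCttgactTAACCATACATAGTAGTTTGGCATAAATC
AT3G30790, chr3:12471401-12471600: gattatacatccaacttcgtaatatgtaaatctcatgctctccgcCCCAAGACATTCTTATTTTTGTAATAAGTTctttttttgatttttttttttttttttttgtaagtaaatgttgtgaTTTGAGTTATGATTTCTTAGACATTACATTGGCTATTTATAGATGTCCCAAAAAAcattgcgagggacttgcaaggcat
near AT1G37735, chr1:14255001-14255200: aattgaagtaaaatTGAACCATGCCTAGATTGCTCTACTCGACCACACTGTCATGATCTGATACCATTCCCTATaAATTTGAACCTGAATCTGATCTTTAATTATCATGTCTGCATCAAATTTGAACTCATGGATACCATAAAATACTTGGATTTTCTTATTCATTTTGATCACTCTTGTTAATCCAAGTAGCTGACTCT

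The share of lost chromosome 2 windows, which chose the lines and is given as a description only, was 23% in line 102, 16.7% in line 389 and 16.3% in line 54. It was 7.68% in line 158, 5.78% in line 266 and 5.58% in line 79, and 4.79%, 4.37% and 4.27% in lines 503, 574 and 340. The keeping lines had between 0.117% in line 219 and 0.517% in line 519. Losing lines thus span a wide range while the keeping lines form a narrow one. Just inside the thresholds stood lines 340 (4.27%) and 519 (0.517%), and just outside them the middle lines 579 (3.30%) and 41 (0.885%).

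**Figure D1:**
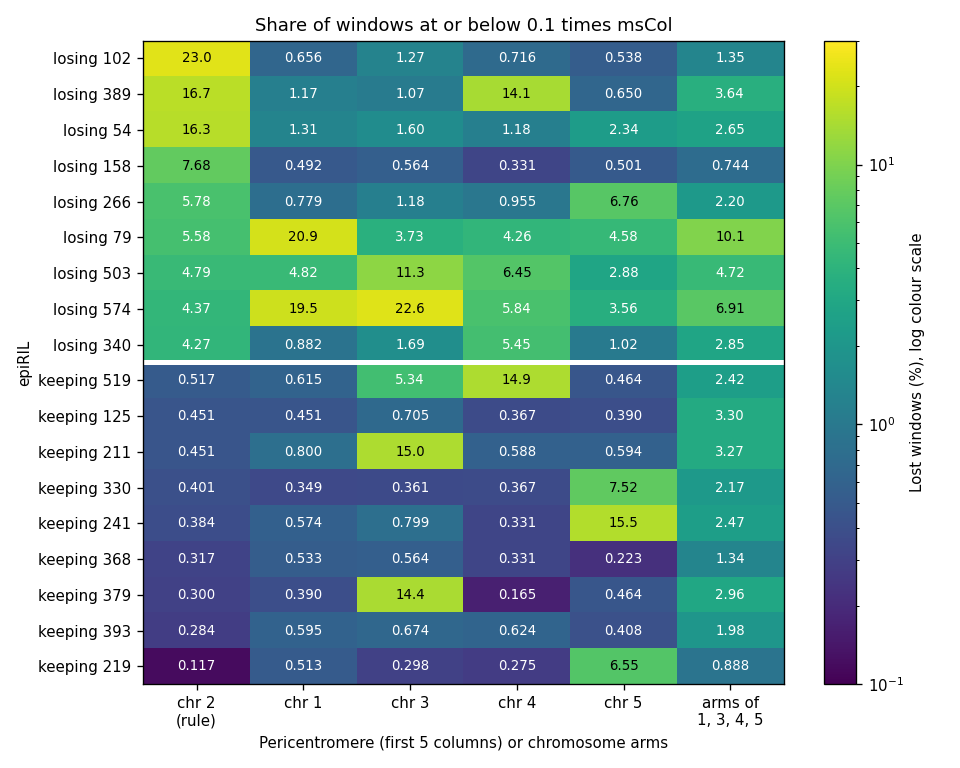
Share of windows at or below 0.1 times the msCol mean (%, log colour scale, value printed in each cell) in the 9 losing epiRILs (top) and the 9 keeping epiRILs (bottom), for the pericentromere of each chromosome and the arms of chromosomes 1, 3, 4 and 5. The chromosome 2 column chose the lines; on chromosome 1 the losing lines 79, 574 and 503 reached 20.9%, 19.5% and 4.82%, above every keeping line.

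The losing lines did not lose the same windows. No window was lost in all 9 losing lines, 3 were lost in 8 of them, and 3983 of the 5991 windows were lost in none. Lines 102, 389 and 54 lost windows along the whole region, and 87.0% of the windows lost in line 389 and 84.7% of those lost in line 54 were also lost in line 102. In line 158 the loss was concentrated between 3.0 and 3.5 Mb, where 32.4% of its windows were lost. In lines 79 and 340 the highest shares lay beyond 6 Mb, partly outside the ranked windows. They had lost 18.5% and 15.6% of the windows in the 500 kb bin centred 2.65 Mb from the centromere midpoint, inside the ranked region. In the bin centred at 3.15 Mb, most of which lies outside it, they had lost 38.1% and 36.0%. Lines 503 and 574 lost windows scattered over several bins. Their highest shares were 12.3% and 13.2% in a bin of the ranked region, and 16.4% and 18.1% in a bin outside it. On the arms of chromosome 2, outside the windows of the ranking, lines 54, 340, 102, 79 and 389 lost 14.6%, 14.0%, 13.2%, 12.5% and 8.96% of the windows, and keeping lines between 0.364% and 3.64%. Line 503 with 3.84% was just above the keeping lines, and lines 574, 266 and 158 with 3.45%, 3.36% and 1.54% lay within their range.

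Chromosome 2 also contains a long insertion of mitochondrial sequence, in which sRNA reads from the organelle cannot be told apart from those of the nucleus. Of the 5991 windows, 660 (11%) consist of such sequence, nearly all of them between 3242401 and 3509600. Line 158 lost 40% of these windows and 3.68% of the others, line 102 51.8% and 19.4%, and line 389 31.5% and 14.9%. The summed level over these windows was between 1321 CPM (line 158) and 10090 CPM (line 389) in losing lines, against 4269 to 9202 CPM in the keeping lines. The summed level did not follow the lost share, since line 389 was above every keeping line, while line 79 had 1991 CPM and had lost 1.97% of the windows and line 102 had 1759 CPM. A ranking without these windows returned the same 9 losing and the same 9 keeping lines. The margin was narrow for line 158, whose 3.68% was just above the middle lines 579 (3.56%), 128 (3.55%) and 50 (3.47%).

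**Figure D2:**
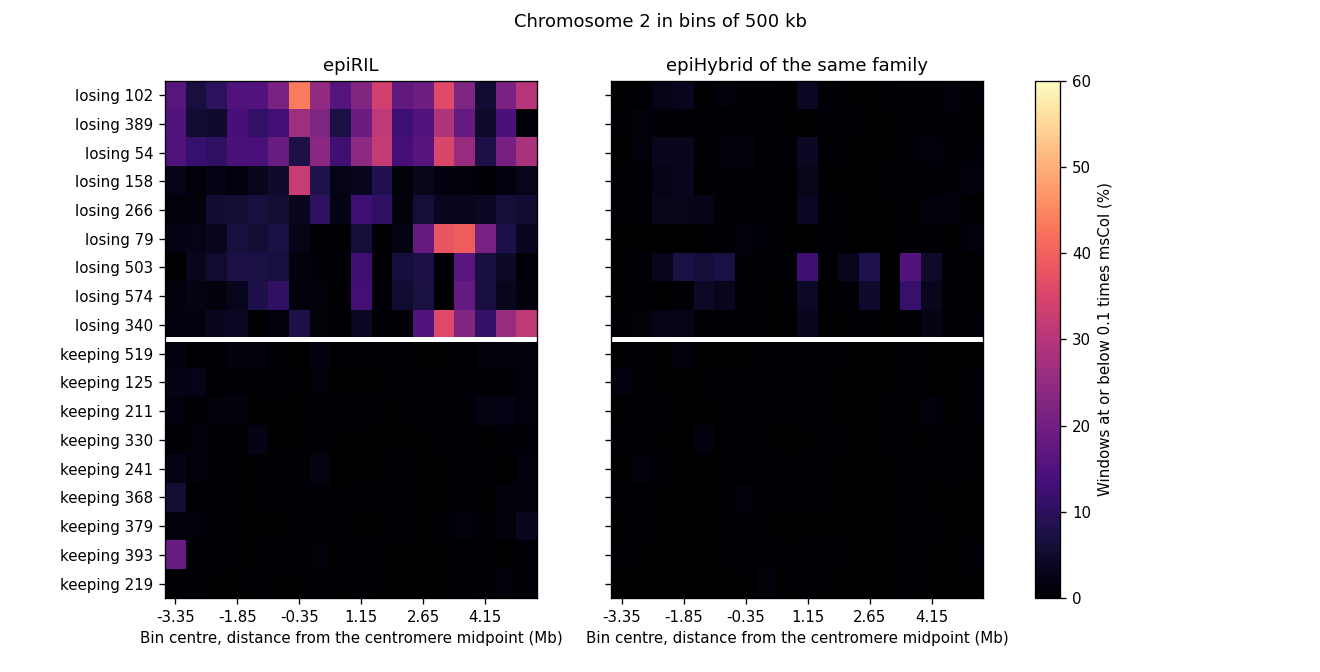
Windows at or below 0.1 times the msCol mean (%, colour) in bins of 500 kb along chromosome 2, by distance of the bin centre from the centromere midpoint, in the epiRILs (left) and in the epiHybrids of the same families (right), with 9 losing families above 9 keeping families. The losing epiRILs differ in where windows were lost, and only the epiHybrids of families 503 and 574 show bins with more than 10% of windows lost.

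The first question was whether loss on chromosome 2 came with loss on the other chromosomes. At the chromosome 1 pericentromere the losing epiRILs had lost 0.492%, 1.17% and 20.9% of the windows (lowest, median and highest) and the keeping epiRILs 0.349%, 0.533% and 0.800%. The means were 5.61 ± 8.38% and 0.535 ± 0.135% (SD, n = 9 each), and the difference of 5.07 percentage points passed an exact permutation test over lines (two-sided, p = 0.00144, adjusted p = 0.00576 over 4 chromosomes). The groups overlap, since line 158 with 0.492% lay below the keeping median. The size of the difference rests on 3 lines, as lines 79, 574 and 503 had lost 20.9%, 19.5% and 4.82%. Without families 79 and 574, an alternative chosen after seeing the data, it was 0.909 percentage points (exact permutation test, adjusted p = 0.0245). With windows of at least 3 CPM in msCol it was 3.84 percentage points and no longer passed (exact permutation test, adjusted p = 0.0642). Among the middle lines, lines 579, 467, 50 and 128 had lost 18.5%, 17.8%, 13% and 10.6% of the chromosome 1 windows.

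On chromosomes 3, 4 and 5 the lost shares did not pass the test. The losing epiRILs had lost 4.99 ± 7.38% on chromosome 3, and the keeping epiRILs 4.24 ± 6.15% (SD, n = 9 each, exact permutation test, adjusted p = 0.837). On chromosome 4 losing lines had lost 4.36 ± 4.38% and keeping lines 2.0 ± 4.85% (adjusted p = 0.593, exact permutation test, n = 9 each). On chromosome 5 they were 2.54 ± 2.16% in losing lines and 3.56 ± 5.31% in keeping lines (adjusted p = 0.837, exact permutation test, n = 9 each). Single lines of both sets had large losses there. Losing line 574 had lost 22.6% on chromosome 3 and losing line 389 14.1% on chromosome 4, while the keeping lines 211, 519 and 241 had lost 15% on chromosome 3, 14.9% on chromosome 4 and 15.5% on chromosome 5. Keeping lines therefore kept the sRNA of chromosome 2 but not that of every other pericentromere. The arms of chromosomes 1, 3, 4 and 5 did not pass the test either, with adjusted p between 0.0632 (chromosome 1) and 0.666 (exact permutation test).

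The share of counts that fell into each pericentromere was also compared, with 8 tests in epiRILs and epiHybrids. None passed, and the smallest adjusted p was 0.134 for chromosome 1 in the epiHybrids (exact permutation test, two-sided). There the epiHybrids of losing lines had 7.23 ± 0.356% of the counts and those of keeping lines 6.75 ± 0.519% (SD, n = 9 each). The median level relative to msCol was compared in epiHybrids on all 5 pericentromeres and did not pass on any of them, with adjusted p between 0.469 and 0.848. On chromosome 2 it was 0.986 ± 0.0562 with a losing father and 1.01 ± 0.0976 with a keeping father. The same ratio was not tested in the epiRILs. On chromosome 3 it was 0.675 to 0.983 in losing epiRILs and 0.907 to 1.08 in keeping epiRILs. All losing lines except 102 and 54 lay below every keeping line there. On chromosome 4 the ranges were 0.799 to 1.05 and 0.864 to 1.19. They were 0.831 to 1.16 and 0.990 to 1.24 on chromosome 1, and 0.867 to 1.09 and 0.823 to 1.33 on chromosome 5.

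Single windows were then tested on chromosomes 1, 3, 4 and 5 with edgeR's quasi-likelihood test. In the epiRILs 139933 windows were tested, of which 13401 (9.58%) had an unadjusted p under 0.05, and 128 (0.0915%) were higher and 55 (0.0393%) lower in losing lines at an adjusted p under 0.05 (Benjamini-Hochberg). They formed 75 higher and 47 lower loci when called windows at most 1 kb apart were joined. Of the 128 higher windows, 50 lay in the chromosome 1 pericentromere, where 0.278% of the tested windows were called higher, against 0.108% over the 4 pericentromeres and 0.0703% on the arms. Of the 55 lower windows, 21 lay in the chromosome 3 pericentromere (0.0972% of the windows tested there). The number of calls depended on the lines included. It ranged from 51 higher windows without keeping line 330 to 308 without losing line 389, and from 19 lower windows without keeping line 330 to 364 without losing line 574. The number of higher windows moved by over 1.5 times without losing line 389, 574 or 340 and without each of the 9 keeping lines, and that of lower windows without each line except 340 and 519.

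In 87 of the 128 higher windows at least 7 of the 9 losing lines lay above every keeping line, and in 12 windows all 9 did. In 43 of the 55 lower windows at least 7 of the 9 keeping lines lay above every losing line, and in 16 all 9 did. These windows were called for a difference between the same sets, which favours such separation. The same count was not made over all tested windows, so these counts are a description only. A single line supplied over 90% of the summed level in 6 higher and 5 lower windows. The sequence of the called windows is given as a description. Of the higher windows 50.0% shared at least one stretch of 24 bases with the chromosome 2 region of the ranking, compared with 36.4% of the lower windows and 34.6% of all tested windows. Within the pericentromeres these shares were 71.8%, 39.0% and 49.7%. Windows in which most 24-base stretches occur more than once in the 5 chromosomes made up 50.0% of the higher windows, 20% of the lower windows and 25.9% of all windows. These shares count windows and not loci, and neighbouring windows are not independent. The 3 related pseudogenes described below hold 16, 16 and 8 of the 128 higher windows and weigh on the shares accordingly.

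The longest runs of called windows lay in 3 annotated pseudogenes, AT1G36200 and AT1G36270 on chromosome 1 and AT3G30790 on chromosome 3. They fell outside the rule for named windows and were chosen after their values were seen. AT1G36200 (windows from 13577201 to 13581200) had 16 of 20 windows called higher, with log2 fold changes between 1.33 and 3.38 and adjusted p between 9.8e-04 and 0.0438. AT1G36270 (13628801 to 13632400) had 16 of 18 windows called, with log2 fold changes between 1.62 and 4.45 and adjusted p between 9.8e-04 and 0.0317. AT3G30790 (12467801 to 12471600) had 8 of 19 windows called, between 1.51 and 2.91 on the log2 scale with adjusted p between 0.00472 and 0.0317. Each stretch runs between its outermost called windows, so its ends were set by the calls, and summed levels below are over these stretches. Over the whole pseudogenes with their flanks, 16 of 21 tested windows of AT1G36200, 16 of 26 of AT1G36270 and 8 of 23 of AT3G30790 were called. When each line was left out in turn, between 12 and 19 of these windows were called at AT1G36200, between 12 and 18 at AT1G36270 and between 5 and 14 at AT3G30790. Without the windows that share sequence with the chromosome 2 region, no window of AT1G36270 and AT3G30790 was called. That setting removes windows for their sequence, which leaves fewer to call. Over all alternatives the windows tested fell as low as 4 at AT1G36270 and 1 at AT3G30790, so no conclusion is drawn from it.

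At AT1G36200 the summed level over its windows was 21.3, 97.3 and 143 CPM in losing epiRILs (lowest, median and highest), against 18.2, 20.6 and 25.6 CPM in keeping epiRILs. Of the 9 losing lines 8 lay between 72.8 and 143 CPM, well above every keeping line, and line 340 with 21.3 CPM lay among the keeping lines. At AT1G36270 the levels were 19.8, 121 and 161 CPM in losing lines and 15.3, 19.8 and 25.4 CPM in keeping lines. The same 8 lines were high, between 97.4 and 161 CPM, and line 340 was again at the keeping level. AT3G30790 had 25.2, 79.6 and 102 CPM in losing lines and 15.5, 22.3 and 32.1 CPM in keeping lines. Here line 79 with 44.0 CPM was the lowest of the 8 high lines. The 2 msCol libraries were at the level of the keeping lines in all 3 loci, with 18.5 to 24.1 CPM at AT1G36200, 20.2 to 21.4 CPM at AT1G36270 and 20.5 to 22 CPM at AT3G30790.

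The window of AT1G36270 printed above had 0.217, 16.3 and 24.7 CPM in losing epiRILs and 0.155, 0.624 and 1.24 CPM in keeping epiRILs (log2 fold change 4.45 ± 0.56, SE, adjusted p = 0.00269). Its capitals cover 194 of the 200 bases, so nearly the whole window has a copy in one of the other pseudogenes. The printed window of AT1G36200 had 0.489, 2.84 and 7.23 CPM in losing lines and 0.0478, 0.159 and 0.728 CPM in keeping lines (3.38 ± 0.55, adjusted p = 0.0164), and 125 of its bases are in capitals. That of AT3G30790 had 0.544, 4.91 and 10.5 CPM in losing lines and 0.371, 0.765 and 1.02 CPM in keeping lines (2.91 ± 0.52, adjusted p = 0.0317), with 85 bases in capitals. In each of the 3 windows the lowest losing line lay within the range of the keeping lines.

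The 3 loci are related in sequence to each other and to further pseudogenes, AT2G13000 on chromosome 2 (5342801 to 5347000) and AT1G42510 on chromosome 1 (15954601 to 15958600). AT1G36200 shared 20.4% of its 24-base stretches with AT1G36270, 25.0% with AT3G30790, 22.2% with AT2G13000 and 24.9% with AT1G42510. AT1G36270 shared 38.7% with AT3G30790, 29.0% with AT2G13000 and 39.8% with AT1G42510. AT3G30790 shared 33.7% with AT2G13000 and 49.4% with AT1G42510. All called windows of the 3 loci contained 24-base stretches that occur more than once in the genome, and in the windows of the 3 loci such stretches made up between 40.7% and 86.4%. Reads from one copy could therefore have been placed at another, and how far this contributed was not tested.

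The related loci on chromosome 2 and farther along chromosome 1 divided the losing lines. AT2G13000 had 173 to 203 CPM in lines 102, 389, 54, 158 and 266, but 17.8 to 31.0 CPM in lines 79, 503, 574 and 340. Keeping lines had between 15.9 and 29.0 CPM there. AT1G42510 had 81.0, 72.9 and 70.7 CPM in lines 79, 503 and 574 and between 19.1 and 27.9 CPM in the other losing lines, against 15, 16.5 and 20 CPM in keeping lines (lowest, median and highest). Each of the 8 lines with high sRNA at AT1G36200, AT1G36270 and AT3G30790 was thus over 3 times the highest keeping line at either AT2G13000 or AT1G42510, none was so at both, and line 340 at neither. Line 54 with 27.9 CPM was 1.40 times the highest keeping line at AT1G42510. AT2G13000 lies within the region of the ranking, so its levels are a description.

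Among the middle lines, the 4 that had lost over 10% of the chromosome 1 pericentromere (579, 128, 50 and 467) were above every keeping line at AT1G42510, by 3.26, 1.81, 3.0 and 2.97 times the highest keeping line. They were also above every keeping line at AT1G36200, by 3.0, 1.7, 2.87 and 2.80 times, and at AT1G36270, by 4.96, 1.66, 3.59 and 3.11 times. At AT3G30790 the ratio was 1.62, 1.91 and 1.11 in lines 579, 50 and 467, while line 128 was below the highest keeping line (0.735 times). A further 7 middle lines were above the highest keeping line at AT1G36200, by 1.01 to 1.47 times, 3 at AT1G36270, by 1.05 to 1.13 times, 4 at AT3G30790, by 1.01 to 1.12 times, and 5 at AT1G42510, by 1.07 to 1.17 times. At AT2G13000 all 16 middle lines were below the highest keeping line. The middle lines did not enter the tests of single windows.

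**Figure D3:**
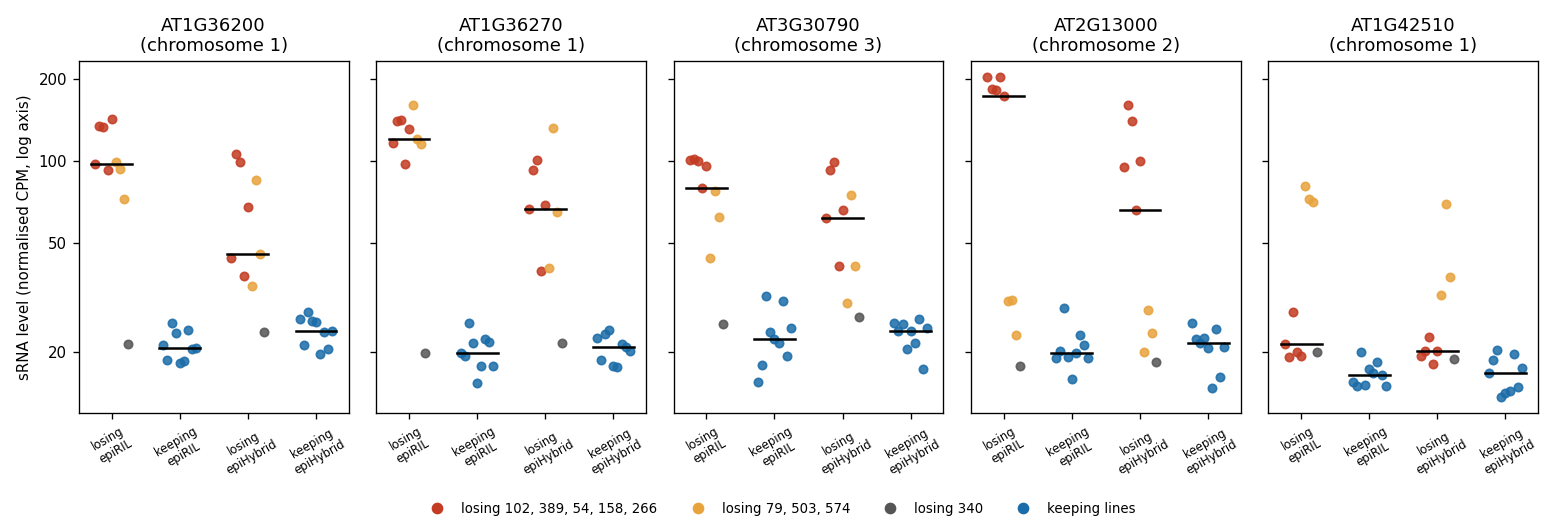
Summed sRNA level (normalised CPM, log axis) at 5 pseudogenes that share sequence, with 1 point per library for losing and keeping epiRILs and their epiHybrids, and the median as a line. At AT1G36200, AT1G36270 and AT3G30790, 8 of 9 losing epiRILs lie above all keeping epiRILs; red points (5 lines) are also high at AT2G13000 and orange points (3 lines) at AT1G42510, while line 340 (grey) is low at all 5.

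The windows named by size of the fold change showed a different picture, since most of them rested on 1 to 3 lines. The largest, on chromosome 1 from 14255001 to 14255200 and 1871 bp from the pseudogene AT1G37735, had 0, 0.193 and 41.3 CPM in losing epiRILs and 0, 0 and 0.0954 CPM in keeping epiRILs (log2 fold change 8.88 ± 1.51, adjusted p = 0.00799). Lines 79, 503 and 574 had 41.3, 31.5 and 27.8 CPM and no other losing line was above 1 CPM, while middle lines reached 96.9 CPM and both msCol libraries were at 0. In its printed sequence 185 of 200 bases lie in stretches shared with the chromosome 2 region. A window next to CIPK7, a kinase that acts with calcineurin B-like calcium sensors, was high in lines 340 (83.3 CPM) and 158 (55.3 CPM) and at most 0.106 CPM in keeping lines (log2 fold change 8.38 ± 1.5, adjusted p = 0.0124). The sRNA of both loci was thus that of a few lines.

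Line 389 alone was high next to the pseudogene AT4G06656, with 104 CPM, and next to AT4G17810, which encodes a C2H2 zinc finger protein, with 78.3 CPM. Line 340 alone was high next to AT5G24890, with 42.8 CPM, and lines 102 and 340 had 17.8 CPM each next to SBP3, a selenium-binding protein gene. Near the pseudogene AT4G08340, line 574 had 31.5 CPM and line 503 had 6.74 CPM. The log2 fold changes of these 5 windows were between 7.19 and 8.12 with adjusted p between 0.0202 and 0.0493. In all named higher windows except that of SNC1 no keeping library had more than 3 counts, so that these fitted fold changes depend on the prior count and are no bound. Single middle lines also reached high levels, up to 67.8 CPM near AT4G06656, 59.4 CPM near CIPK7 and 14.2 CPM near SBP3, while near AT4G17810 and AT5G24890 none was above 0.111 CPM.

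The window in an exon of SNC1, a TIR-NBS-LRR disease resistance gene, was the exception among the named higher windows. It had 0.0564, 8.61 and 130.0 CPM in losing epiRILs and 0, 0.113 and 0.430 CPM in keeping epiRILs (log2 fold change 7.22 ± 1.21, adjusted p = 0.0188). Of the 9 losing lines 7 lay above every keeping line, with 130.0 CPM in line 340, 34.8 CPM in line 54, 27.1 CPM in line 503, 12.6 CPM in line 158 and 8.61 CPM in line 102, while lines 266 and 79 with 0.665 and 0.519 CPM were only just above. In the epiHybrids the window had 66.6 CPM in family 503 and at most 0.672 CPM in the other losing families, against at most 0.807 CPM in keeping families. Middle lines reached 86.9 CPM and msCol had 0.0766 and 0.291 CPM. The window shares no 24-base stretch with the chromosome 2 region, and 36.7% of its stretches occur more than once in the genome, as SNC1 belongs to a cluster of similar resistance genes.

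The 8 named lower windows were high in 1 to 3 keeping lines and had at most 4 counts in any losing library. Next to the pseudogene AT1G46552, keeping lines 379, 330 and 368 had 96.1, 93.5 and 15.8 CPM, while losing lines had at most 0.207 CPM (log2 fold change -8.11 ± 1.54, adjusted p = 0.0278). A window in AT4G28088, a gene of the low temperature and salt responsive family, had 90.3 CPM in line 211 only, one next to the glycosyltransferase gene AT5G60700 had 59.5 CPM in line 241 only, and one in SCRL5, which encodes an SCR-like peptide, had 78.2 CPM in line 368 only. MEE60, a gene known from maternal effect embryo arrest, had 19.5 CPM in line 368 and 11.2 CPM in line 379, and the msCol libraries had 0 and 27.6 CPM. The non-coding loci AT3G00700 and AT4G09215 had 28.1 CPM in line 219 and 15.8 CPM in line 125. These windows mark sRNA present in single keeping lines rather than sRNA shared by the set.

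Next to the pseudogene AT3G42680 most lines were low relative to msCol. Both msCol libraries had sRNA there (16.4 and 20.6 CPM), and keeping lines 219, 393 and 368 had 28.0, 25.8 and 24.1 CPM. All 9 losing lines had at most 0.114 CPM, and the other 6 keeping lines were below 1 CPM (log2 fold change -7.30 ± 1.32, adjusted p = 0.0161). Middle lines had 0, 0.0483 and 22.8 CPM (lowest, median and highest). The epiHybrids had 0.0498, 1.05 and 17.5 CPM with a losing father and 0.0537, 0.382 and 36.5 CPM with a keeping father. Both epiHybrid medians were thus far below msCol, their mother, and the cause was not tested. The neighbouring window, from 14761401 to 14761600, lies 772 bp from CLSY1, a chromatin remodeler that recruits polymerase IV. It had at most 0.109 CPM in losing lines and up to 3.91 CPM in keeping lines (log2 fold change -5.02 ± 1.01, adjusted p = 0.0286), and msCol had 2.23 and 2.83 CPM. The difference there rests on 3 keeping lines that lay above all losing lines. When each line was left out in turn, the window near AT3G42680 was called in all 18 settings, those of SNC1 and CIPK7 in 17 and that near AT1G37735 in 16, and the other named windows of the epiRILs in 8 to 12 of 17 or 18.

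**Figure D4:**
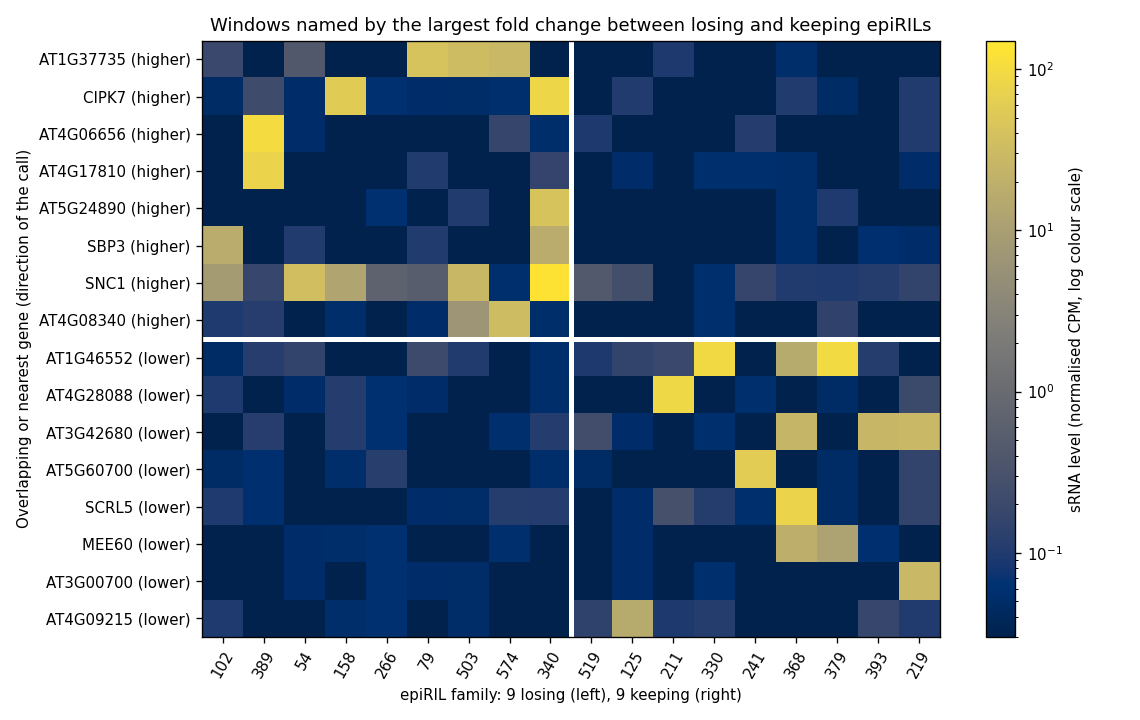
sRNA level (normalised CPM, log colour scale) of the 16 windows named by the size of the fold change, in 9 losing epiRILs (left of the white line) and 9 keeping epiRILs (right), with higher calls above and lower calls below. Most windows are high in 1 to 3 lines; in the SNC1 window 7 losing lines lie above every keeping line, up to 130.0 CPM in line 340.

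The epiHybrids are libraries that the ranking did not use, and they were tested by their father's set. Of 141444 windows tested on chromosomes 1, 3, 4 and 5, 13 (0.00919%) were higher and 3 (0.00212%) lower in the epiHybrids of losing lines, and at an unadjusted p under 0.05 there were 11531 (8.15%). Of the 13 higher windows, 9 lay in the chromosome 1 pericentromere, and 6 of those formed 1 locus in AT1G36270. All 13 lay in 6 loci. In 6 of the 18 settings that left out 1 epiHybrid no window was called higher, and in 7 none was called lower. The higher count moved by over 1.5 times without the epiHybrids of 389, 574, 340 or any keeping line, up to 79 without 574, and the lower count without each epiHybrid except those of 54, 266, 79, 503 and 241, up to 127 without 574.

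Windows called in the epiRILs mostly moved the same way in the epiHybrids. Of the 128 higher windows, 121 were also tested in epiHybrids, and 120 of them (99.2%) were higher there too, compared with 63.2% of all windows that were higher in the losing epiRILs. An unadjusted p under 0.05 in the same direction was reached by 113 (93.4%), compared with 8.04% of all such windows, and 9 were called. Their median log2 fold change was 1.68 in epiHybrids and 3.0 in epiRILs. Of the 55 lower windows, 52 were tested, 47 (90.4%) had the same direction and 32 (61.5%) an unadjusted p under 0.05, compared with 63.3% and 5.36% of all windows on that side, and none was called. Their median was -0.63 in epiHybrids and -2.17 in epiRILs. The windows were chosen by their calls in the epiRILs, so smaller medians in other libraries can follow from that choice alone. Neighbouring windows are not independent, and the related pseudogenes weigh on the shares of the higher windows.

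The difference between generations was tested within families as an interaction over 140429 windows, and none (0%) was called (edgeR, quasi-likelihood, adjusted p under 0.05). At an unadjusted p under 0.05 there were 6165 windows (4.39%), and DESeq2 called 12 higher and 11 lower. The smaller fold changes in epiHybrids are therefore not shown to differ from those in epiRILs at single windows.

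At AT1G36270 the epiHybrids of losing lines had 21.6, 66.8 and 132 CPM, against 17.6, 20.8 and 24.1 CPM in the epiHybrids of keeping lines. The epiHybrid of line 340 was again at the level of the keeping families and the other 8 lay at 39.5 CPM or more. All 18 windows of the locus were higher and 6 were called, with the window printed above at a log2 fold change of 3.57 ± 0.54 (adjusted p = 0.0340). When each epiHybrid was left out in turn, between 0 and 9 windows of AT1G36270 were called, with none without that of line 125, 211, 330, 379, 393 or 219, and the printed window was called in 8 of 18 settings. AT1G36200 had 23.6, 45.8 and 106 CPM with a losing father and 19.6, 23.9 and 27.9 CPM with a keeping father, and AT3G30790 had 26.8, 61.9 and 99.4 CPM with a losing father and 17.3, 23.9 and 26.4 CPM with a keeping father. All windows of both loci were higher, with a median log2 fold change of 1.21 and 1.29, and none passed the adjusted threshold. The epiHybrid of line 503 exceeded its father at AT1G36270 (132 and 121 CPM), and those of the other 7 high families were below theirs.

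The named windows of the epiHybrids rested on few families. The window near AT1G37735 was again high in families 503, 574 and 79, with 44.6, 18.4 and 6.26 CPM, and at most 0.195 CPM in epiHybrids of keeping lines (log2 fold change 8.00 ± 1.30, adjusted p = 0.0225). A window in an exon of FOLT1, a folate transporter gene with known epialleles in other accessions, had 296 CPM in the epiHybrid of line 79 and at most 0.122 CPM in the epiHybrids of keeping lines (log2 fold change 9.60 ± 1.76, adjusted p = 0.0445). The father, line 79, had 0.259 CPM, and no epiRIL compared here was higher. Near AT1G26620 the same epiHybrid had 177 CPM and its father 0.207 CPM (9.35 ± 1.69, adjusted p = 0.0430). Both are single libraries without a second one of the same cross.

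Lower in the epiHybrids of losing lines were a window near the pseudogene AT3G41345, with at most 0.0995 CPM against up to 3.66 CPM in the epiHybrids of keeping lines (log2 fold change -6.48 ± 1.03, adjusted p = 0.0337), and a window 984 bp from MYB72, a transcription factor gene known from root responses to iron limitation. The MYB72 window had 0.0995, 0.425 and 0.691 CPM in the epiHybrids of losing lines and 0.854, 1.20 and 1.89 CPM in those of keeping lines (-1.71 ± 0.28, adjusted p = 0.0445). The sets did not overlap there, although the levels were low. In the epiRILs the same window had 0, 0.633 and 1.25 CPM in losing lines and 0.777, 1.64 and 2.28 CPM in keeping lines (-1.45, adjusted p = 0.264). When each epiHybrid was left out in turn, the MYB72 window was called in 3 of 18 settings, that near AT3G41345 in 10 of 18, that near AT1G37735 in 9 of 18, and those of FOLT1 and AT1G26620 in 8 of 17 each. The calls of these named windows in the epiHybrids thus depended on the libraries included.

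On chromosome 2 the epiHybrids were read at the windows that the father had lost. In the epiHybrids of lines 102, 389 and 54 the median ratio to msCol at these windows was 0.516, 0.497 and 0.498, and the 9 epiHybrids of keeping lines had medians of 0.845, 0.852 and 0.932 at the same windows. For lines 340 and 158 it was 0.485 and 0.448, against keeping medians of 0.895 and 0.572. For line 266 the median ratio was lower, 0.307 against 0.887, and for line 79 higher, 0.753 against 1.12. In family 503 the epiHybrid had a median ratio of 0.0566 against 1.08, and 67.2% of the windows lost in its father were also lost in the epiHybrid. In family 574 the ratio was 0.179 against 0.979, with 32.4% also lost. In the other 7 losing families between 1.09% and 18.5% of these windows were lost in the epiHybrid. Each epiHybrid except that of line 158 was below the range of the 9 epiHybrids of keeping lines.

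**Figure D5:**
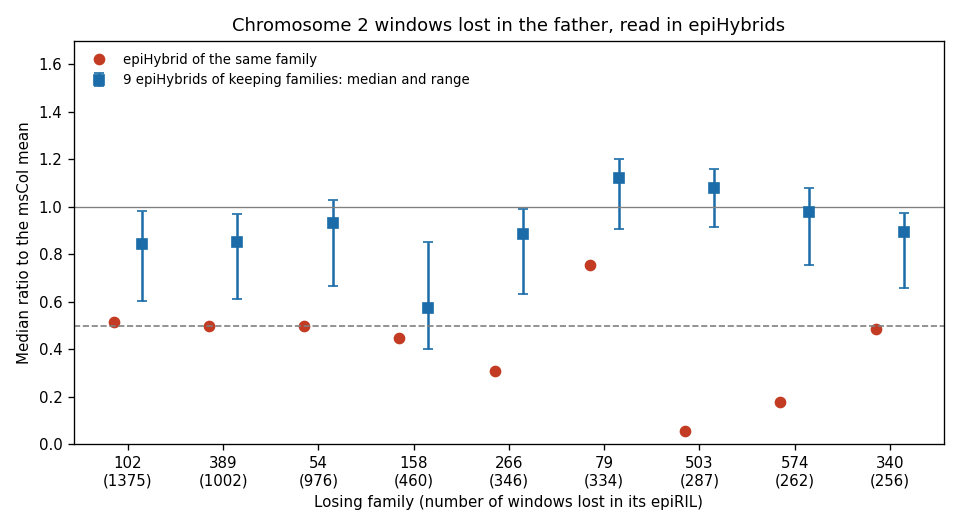
Median ratio to the msCol mean in epiHybrids at the chromosome 2 windows lost in the father, with 1 red point for the epiHybrid of each losing family and blue squares with bars for the median and range of the 9 epiHybrids of keeping families at the same windows; lines mark 0.5 and 1. The epiHybrids of lines 102, 389, 54 and 340 lie near 0.5 and those of lines 503 (0.0566) and 574 (0.179) far below it. Windows of mitochondrial sequence are included.

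Window by window, 34296 chromosome 2 windows were tested in the epiHybrids, of which 543 (1.58%) were higher and 402 (1.17%) lower with a losing father (edgeR, quasi-likelihood). With library size scaling they were 616 higher and 216 lower, and with DESeq2 821 and 727. Windows lost in 3 or more fathers were lower in 122 of 1040 cases and higher in none, with a median log2 fold change of -0.46. Windows lost in 1 or 2 fathers were lower in 21 of 968 cases (2.17%) and higher in 2, with a median of -0.22. Windows lost in no father were lower in 21 of 3983 cases (0.527%) and higher in 96, with a median of 0.00. Outside the windows of the ranking, 238 of 28305 (0.841%) were lower and 445 higher, with a median of -0.04. Within the ranked windows, those lost in more fathers were thus more often lower in the epiHybrids. The fathers' values chose the lines and also sorted these windows into groups, so this is a description.

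The longest runs of lower windows in these epiHybrids, chosen after their values were seen, lay at AT2G11930 and AT2G11940 (21 windows from 4808601 to 4815600, log2 fold changes from -1.21 to -0.72), AT2G19100 (15 windows from 8270001 to 8274600, -2.18 to -0.66), AT2G14930 and AT2G14940 (13 windows each) and AT2G04290 (12 windows). The longest run of higher windows, 16 from 5342001 to 5346400, overlapped AT2G12990 and AT2G13000, with log2 fold changes between 0.93 and 4.75. In the stretch of AT2G13000 from 5342801 to 5347000, 12 of 21 tested windows were called higher. The summed level of that stretch was 18.4, 66.1 and 161 CPM in the epiHybrids of losing lines and 14.7, 21.5 and 25.5 CPM in those of keeping lines. The epiHybrids of the 5 lines with high AT2G13000 were the 5 highest. A further run of 8 windows lay at AT2G13390, between 2.33 and 4.08 on the log2 scale. Higher windows of the chromosome 2 pericentromere contained a repeated 24-base stretch in 94.0% of cases, lower windows in 52.9% and all tested windows there in 74.0%.

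Gene lists were counted over chromosomes 1, 3, 4 and 5, where 0.131% of all windows were called in the epiRILs and 0.0113% in the epiHybrids. Of 41 genes of DNA methylation and RdDM, 24 had a tested window within 1 kb. Of their 87 windows in epiRILs none was higher and 1 lower, the window beside CLSY1 described above, with a median log2 fold change of 0.08 over the list and -0.01 over all windows. None of the 26 windows at TAS loci, which make trans-acting sRNA, was called in either generation, with a median of -0.05 in epiRILs. Of 242 windows at known epialleles and transposon genes none was called in epiRILs (median 0.25), and 2 windows of FOLT1 were higher in epiHybrids, both from the single library of family 79.

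Of the 326 annotated microRNA genes, 260 had a tested window. In the epiRILs 1 of 1150 windows was higher and none lower, with a median log2 fold change of -0.04. The higher window lies by MIR393b, the precursor of a microRNA known to target auxin receptor transcripts, and overlaps the non-coding gene AT3G08595. It had 0, 0.284 and 4.49 CPM in losing lines and 0, 0.0515 and 0.113 CPM in keeping lines (log2 fold change 4.15 ± 0.80, adjusted p = 0.0278), and 7 losing lines lay above every keeping line. None of the 1155 windows was called in the epiHybrids.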

How the data were processed

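The series holds 1 sRNA library for each of 36 epiHybrids, 36 epiRIL fathers and 2 msCol lines. The authors aligned the reads to TAIR10 and counted them in 200 bp regions of each cytosine context (step 50 bp) with ShortStack, default parameters and -nohp, and deposited raw counts that are not normalised. The ShortStack version, the placement of reads that match several sites and the use of molecular identifiers are not given in the sources used here. The transposon annotation was not used here.

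Non-overlapping CHH windows (every 200 bp) were used. Levels are CPM, for tests and printed loci with TMM factors, and the msCol mean is over 2 libraries. Pericentromeres are the centromere midpoint ± 3 Mb. Windows that averaged 2 or more counts over the libraries of a fit were tested with edgeR 4.0.16 (R 4.3.3) by quasi-likelihood with TMM and Benjamini-Hochberg adjustment, and shares per line by exact permutation over 48620 splits (SciPy 1.17.1). Chromosome 2 of the epiRILs was fitted too, but its calls are not used here because these values chose the lines. Scripts were tested on simulated data. Fits between sets had no further covariate, and the interaction had the family as a block, because the epiRIL of a family number fathered its epiHybrid. Annotation and sequences are from RefSeq TAIR10.1.

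Called windows at most 1 kb apart were joined into a locus, represented by its window with the largest absolute log2 fold change and a mean of at least 10 counts. Named are the 8 such loci per direction in epiRILs, the 4 per direction in epiHybrids and in the interaction, and listed genes with a called window within 1 kb. Lines, lists and loci were chosen with earlier results of these data known. Alternatives changed the filter, normalisation, tool, context, window phase, set sizes, covariates, definition of lost windows and pericentromere width, and left out each line.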

Additional observations from a re-analysis of the deposited data

Results flagged for a closer look

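Of 78 groups of 9 lines, 22 had 1 line far from the other 8. The limit used flags about 1 in 20 groups of independent, normally distributed values. The values here are skewed and the groups share lines, so the count is not set against chance. The flagged groups were 9 of 56 groups of shares, ratios and summed levels, and 13 of 22 groups at named windows. Among the lost shares, losing line 574 stood apart on chromosome 3 (22.6%), losing line 389 on chromosome 4 (14.1%), keeping line 519 on chromosome 4 (14.9%) and keeping line 241 on chromosome 5 (15.5%). The epiHybrid of keeping line 393 had a low median ratio to msCol at the chromosome 1 pericentromere (0.853). Family 266 had the highest share of counts in the chromosome 5 pericentromere among losing families, 12.0% in the epiRIL and 10.1% in the epiHybrid. Line 340 was low at AT1G36270 (19.8 CPM), and the epiHybrid of line 503 was high at AT1G42510 (69.7 CPM).

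At the named windows, losing line 389 stood apart near AT4G06656 (104 CPM) and AT4G17810 (78.3 CPM), line 340 near AT5G24890 (42.8 CPM) and in SNC1 (130.0 CPM), and line 574 near AT4G08340 (31.5 CPM). Among keeping lines these were line 211 in AT4G28088 (90.3 CPM), line 241 near AT5G60700 (59.5 CPM), line 368 in SCRL5 (78.2 CPM), line 219 in AT3G00700 (28.1 CPM) and line 125 in AT4G09215 (15.8 CPM). Among epiHybrids the one of line 79 stood apart in FOLT1 (296 CPM) and near AT1G26620 (177 CPM), and the one of line 503 near AT1G37735 (44.6 CPM). These windows were chosen for a large fold change, which a single high line can give.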

How the results depend on the processing

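The counts of called windows moved with most settings. Higher and lower windows in epiRILs, 128 and 55 in the report, were 272 higher with no filter on counts, 909 and 485 with DESeq2, 43 and 16 in CG windows, 35 and 11 in CHG windows, 1383 and 434 with 12 against 12 lines, 232 higher with the lost share of 34 families as a covariate, and 154 lower with the lost shares of the other pericentromeres as covariates. Among windows that share no 24-base stretch with the chromosome 2 region they were 47 and 23. In epiHybrids, 13 and 3 in the report, they were 728 and 235 with no filter, 283 and 118 with DESeq2, 3 and 1 in CG, 0 lower in CHG, 7 and 0 with windows shifted by 100 bases, 392 and 39 with 12 against 12, 134 and 21 with the continuous share, 167 and 314 with the covariates, 0 and 0 without shared stretches, 6 lower with at least 10 counts and 7 lower with 6 against 6. On chromosome 2 in epiHybrids, DESeq2 called 821 higher and 727 lower windows, and library size scaling 216 lower.

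Chosen after seeing the data were the 3 lines losing most against the 9 keeping lines (299 and 160 in epiRILs, 133 and 35 in epiHybrids), limma on log2(CPM + 1) (64 and 186, 8 and 62), robust dispersions (4 and 0 in epiHybrids) and leaving out families 79 and 574 (237 and 244, 105 and 234). Leaving out each line gave 51 to 308 higher and 19 to 364 lower windows in epiRILs, and 0 to 79 and 0 to 127 in epiHybrids. Without each line in turn the chromosome 1 lost share differed by 3.17 (without 79) to 5.71 percentage points (without 158), with adjusted p between 0.00099 and 0.0115 (exact permutation test).

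The interaction without the replicate block called 1 window higher, with the block none, and DESeq2 with the block 12 higher and 11 lower. The chromosome 1 lost share at 3 CPM in msCol was 3.84 percentage points (adjusted p = 0.0642). The share of counts on chromosome 1 in epiHybrids passed without annotated small RNA windows (0.594, adjusted p = 0.0248) and within 2 Mb (0.421, adjusted p = 0.0359, exact permutation test). On chromosome 4 the direction turned in both (-0.0811 and -0.0331), as did the chromosome 5 ratio in epiHybrids from summed CPM (-0.00907). None of these turned values passed. With the covariates, the windows at AT4G28088 and AT5G60700 turned to 0.12 and 0.75 on the log2 scale. The cause of these changes was not tested. Over all alternatives, the 22 named windows kept their call in 446 cases and lost it in 269, and 14 with an adjusted p of NA in DESeq2 were not counted. Windows of 1 line are limited by 1 library per line.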

Other observations

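Line 340 differed from the other losing lines at several loci. It lost windows of chromosome 2 mainly beyond 6 Mb, stayed at the keeping level at the 5 related pseudogenes and had the highest sRNA of all losing lines in SNC1 and next to CIPK7. On the pericentromeres of chromosomes 1, 3 and 5 line 340 had lost 0.882%, 1.69% and 1.02% of the windows, and on chromosome 4 5.45%. In family 503 loss was also seen in the epiHybrid on other chromosomes, with 6.99% of the windows lost on chromosome 3 and 5.45% on chromosome 4, against at most 0.643% and 0.551% in the epiHybrids of keeping lines.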
